A study of Mus musculus with 25 samples.

Results

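The 10 genes described here are the classical genes of the endoplasmic reticulum (ER) stress response: Atf6, Ern1, Xbp1, Atf4, Ddit3, Hspa5, Hsp90b1, Pdia4, Dnajb9 and Herpud1. They were picked by symbol and not by their values, as the rows of the count files carrying these symbols, 10 genes of 54752. RNA was sequenced from epididymal (eWAT) and inguinal (iWAT) white adipose tissue of male mice labelled C57BL/6N. Wild type mice received a normal chow diet (ND) or a high-fat diet (HFD) with 60% of calories from fat, and Acod1-/- mice, which lack the enzyme that makes itaconate in every cell, received the HFD. The diets began at 5 weeks of age and lasted 16 weeks, except that the labels give 17 and 18 weeks for iWAT knockout libraries 2 and 3. The eWAT groups held 4 WT ND, 5 WT HFD and 5 knockout HFD libraries, the iWAT groups 3, 5 and 3. All mice, controls included, lived in single cages during the diets. Knockouts on ND are not analysed here, so the genotype comparison exists on the HFD alone. Acod1 itself reached at most 9 counts in any library of either genotype, which checks no label.

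Proteins that are secreted or sit in membranes fold in the ER. When unfolded proteins build up, sensors in the ER membrane start the unfolded protein response. IRE1, the product of Ern1, splices Xbp1 mRNA into the form that encodes an active transcription factor. ATF6 is cut in the Golgi and its released part enters the nucleus. PERK slows translation, under which ATF4 is made more efficiently, and ATF4 in turn raises Ddit3, which encodes CHOP, a factor tied to cell death and known to restrain adipocyte differentiation. The output is a set of folding and degradation genes: Hspa5 (BiP), Hsp90b1 (GRP94), Pdia4 (a disulfide isomerase), Dnajb9 (a co-chaperone of BiP) and Herpud1 (a membrane component of ER-associated degradation). Adipose tissue secretes adipokines and matrix, and obesity has long been linked to this response. Gene counts do not tell spliced from unspliced Xbp1, and they carry no measure of ATF6 cutting, IRE1 activity or ATF4 translation.

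The promoters are shown first, since short sequence elements bound by ATF6, XBP1 and CHOP partners are textbook features of genes of this response. RefSeq promoter windows (GRCm38.p6, 250 bases before to 50 after the start) were found for 9 of the 10 genes, all but Atf6. The ER stress response element ERSE, spelled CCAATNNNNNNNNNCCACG, was present in Hspa5 and Hsp90b1 and in 0.119% of all 32851 windows, searched on both strands. ERSE-II, spelled ATTGGNCCACG and sharing the letters CCACG with ERSE, was present in Herpud1 and in 0.0365% of all windows. The XBP1 element TGACGTGG (0.676% of windows) and the C/EBP-ATF element TGATGNAAT (0.965%) matched none of the 9 windows. In Hspa5 the ERSE lay at -65 to -47 from the start. Hsp90b1 held it at -212 to -194 and, on the opposite strand, at -107 to -89, and the ERSE-II of Herpud1 lay at -52 to -42. The 250 bases before the start are printed for these 3 genes, and for Ddit3, the member that moved most and in whose window none of the 4 spellings occurs, with matches in capitals (Hspa5 chr2:34771840-34772089, plus strand, Hsp90b1 chr10:86705445-86705694, minus strand, Herpud1 chr8:94386179-94386428, plus strand, Ddit3 chr10:127290543-127290792, plus strand).
Hspa5: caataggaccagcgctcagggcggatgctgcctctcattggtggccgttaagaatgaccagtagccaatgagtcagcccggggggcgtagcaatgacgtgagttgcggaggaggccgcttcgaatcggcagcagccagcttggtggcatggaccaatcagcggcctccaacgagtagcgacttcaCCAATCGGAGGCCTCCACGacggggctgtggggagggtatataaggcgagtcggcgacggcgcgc
Hsp90b1: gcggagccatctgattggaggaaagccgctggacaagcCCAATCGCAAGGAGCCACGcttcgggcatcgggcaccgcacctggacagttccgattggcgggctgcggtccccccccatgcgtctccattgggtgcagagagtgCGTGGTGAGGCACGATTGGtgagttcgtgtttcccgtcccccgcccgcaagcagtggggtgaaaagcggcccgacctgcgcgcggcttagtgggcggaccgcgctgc
Herpud1: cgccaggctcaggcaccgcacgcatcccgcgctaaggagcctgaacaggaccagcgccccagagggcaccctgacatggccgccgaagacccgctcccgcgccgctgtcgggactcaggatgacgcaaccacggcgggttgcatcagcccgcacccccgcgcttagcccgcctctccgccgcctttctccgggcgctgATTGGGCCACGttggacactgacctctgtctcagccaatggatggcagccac
Ddit3: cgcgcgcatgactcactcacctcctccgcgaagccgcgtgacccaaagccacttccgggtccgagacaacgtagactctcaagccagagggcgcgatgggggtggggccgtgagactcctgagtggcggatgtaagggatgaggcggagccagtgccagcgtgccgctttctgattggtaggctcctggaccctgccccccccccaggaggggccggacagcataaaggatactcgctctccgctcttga
Among the other ER chaperone genes, 15 of 18 had a window, and Dnajc3, Calr, Canx and Creld2 held an ERSE and Dnajb11 an ERSE-II. A match describes these letters only. The genes themselves lie on chromosomes 1 (Atf6, 170704674 to 170867771), 2 (Hspa5, 34771970 to 34777547), 6 (Pdia4, 47796141 to 47813430), 8 (Herpud1, 94386438 to 94395377), 10 (Hsp90b1, 86690209 to 86705509, and Ddit3, 127290774 to 127296288), 11 (Xbp1, 5520659 to 5525893, and Ern1, 106394650 to 106487852), 12 (Dnajb9, 44205559 to 44210326) and 15 (Atf4, 80255184 to 80257541) of GRCm38.

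Libraries held 31.41 to 52.34 M counts on genes, so the rarest member, Ern1, rested on 255 to 3185 counts and Hspa5 on 13307 to 53945. Library 2 of eWAT ND stood apart: its 6 epididymis epithelium markers summed to 6732 CPM (read counts scaled to the TMM-adjusted library total) against 0.0973 to 43.8 in the other ND libraries, and results that rest on it are given with and without it. Its 5 mammary and skin epithelium markers were also the highest of the group, at 318 CPM. Of the 6 epididymis markers, Lcn9, Adam28 and Cst11 were at 0 in every eWAT ND library. The library identifiers fall into 2 number series. All ND libraries belong to the second series together with 1 library of each HFD-fed group, so that series and diet nearly coincide. B and plasma cell markers summed to 433 to 675 CPM in the iWAT ND libraries and to at most 99.1 CPM in any library of another group. In whole tissue, fewer cells of a type and less RNA per cell cannot be told apart.

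Compared per transcript length, as TPM (transcript counts per length, scaled to an equal total in each library), the chaperones were the most abundant members and the sensors the least. Over the 25 libraries the mean was 379 TPM for Hspa5, 286 for Hsp90b1, 140 for Xbp1, 130 for Pdia4, 127 for Atf4, 75.3 for Herpud1, 68.4 for Dnajb9, 29.6 for Ddit3, 14.7 for Atf6 and 5.83 for Ern1. Hspa5 headed the order in all 6 groups, although its range overlapped that of Hsp90b1 in each. Xbp1, Pdia4 and Atf4 changed places between groups, and the ranges of neighbours among these 3 overlapped in every group but eWAT ND, where all Atf4 values lay below all Xbp1 values. Herpud1 and Dnajb9 overlapped in every group but iWAT ND. Herpud1 ranked above Dnajb9 in every group but eWAT HFD. In eWAT Ddit3 ranked below Atf6 on ND and above it on the HFD, while in iWAT it kept its place: its TPM range overlapped that of Atf6 in eWAT ND (15.6 ± 3.5 against 16.9 ± 2.47, SD, n = 4) and lay above it in each of the other 5 groups. Across the libraries Ern1 varied 6.87-fold between its highest and lowest CPM and Ddit3 4.84-fold, whereas Herpud1 varied 1.54-fold and Atf4 1.66-fold.

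**Figure D1:**
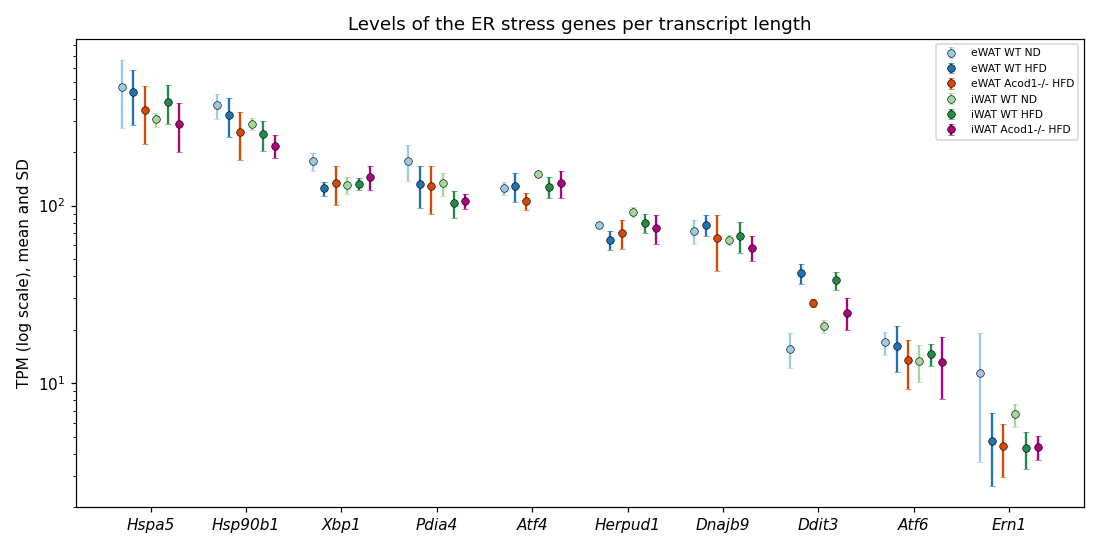
Mean TPM (log axis) of each of the 10 ER stress genes, ordered by level, in the 6 groups, with the SD as bars. Hspa5 and Hsp90b1 lie highest and Ern1 lowest in every group, and Ddit3 shows the widest separation of the ND means (15.6 and 20.96 TPM) from the HFD means (41.6 and 37.97 TPM).

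The first question was whether the HFD changed these genes in wild type eWAT. Ddit3 rose about 3-fold and Ern1 fell, and none of the other 8 members passed the test. Ddit3 was at 9.995, 8.81, 8.40 and 7.24 CPM in the ND libraries and at 20.95, 20.3, 29.1, 35.0 and 27.6 CPM in the HFD libraries. Every HFD library lay above every ND library, and the lowest HFD value was over 2 times the highest ND value. The log2 fold change was 1.61 (SE 0.19, adjusted p = 0.000223 in edgeR's quasi-likelihood test, adjusted over 14936 genes), a 3.05-fold rise, with group means of 8.61 ± 1.14 (SD, n = 4) and 26.6 ± 6.11 CPM (SD, n = 5). Ddit3 overlaps Mars and Gm4189 on the opposite strand, and how reads there were assigned is not given in the sources used here.

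Ern1, the IRE1 sensor, moved the other way. It stood at 24.0, 59.1, 16.4 and 19.6 CPM in ND and at 20.7, 16.0, 10.5, 11.1 and 10.4 CPM on the HFD. ND library 2, with the epididymis markers, held the value of 59.1, and HFD library 1 fell inside the ND range, so the groups overlapped. The fitted log2 change was -1.12 (SE 0.34, adjusted p = 0.0165 in edgeR). Without ND library 2 it was -0.56 (SE 0.25, adjusted p = 0.0967), and with the identifier series as a term it was -1.05 and no longer called (adjusted p = 0.15).

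The count of 2 called members of 10 stood beside 51.8% of all tested genes in this comparison. Groups that did not overlap were seen for 1 member, Ddit3, and for 35.0% of all tested genes. The members' median log2 change was 0.03 against -0.04 for all genes. The called share was thus smaller among these genes than among all tested genes, and that difference was not tested.

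Among the transcription factors, Xbp1 gave 157, 172, 195 and 232 CPM in ND and 122, 138, 158, 187.9 and 147 CPM on the HFD. The HFD values were lower on average but overlapped the ND range (log2 -0.34, SE 0.16, adjusted p = 0.104). Its call depended on the setting, with adjusted p from 0.0262 (limma on log2(TPM + 1), added after the values were seen) to 0.203 over the alternatives that kept all libraries. Atf4 was at 92.8, 92.8, 109 and 91.7 CPM in ND and 130, 98.3, 111, 103 and 110 CPM on the HFD (log2 0.18, SE 0.10, adjusted p = 0.147 in edgeR and 0.0896 in DESeq2), and Atf6, the remaining sensor, at 48.1 to 54.0 and 42.1 to 64.8 CPM (adjusted p = 0.704).

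The folding genes did not pass the test in eWAT. Hspa5 was at 558, 1001, 448 and 538 CPM in ND and at 553, 532, 568, 1192 and 583 CPM on the HFD. In each group a single library stood far above the rest, ND library 2 and HFD library 4. The log2 change was 0.10 (SE 0.30), with an approximate 95% interval from -0.49 to 0.69, and 0.39 (SE 0.29, adjusted p = 0.314 in edgeR) without ND library 2. Hsp90b1 had a log2 difference of -0.01 (SE 0.20), Pdia4 of -0.26 (SE 0.22) and Dnajb9 of 0.28 (SE 0.20). Herpud1, which was the least variable member, stood at 55.1 to 63.2 CPM in ND and 49.6 to 58.5 CPM on the HFD (log2 -0.14, SE 0.09, adjusted p = 0.243).

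**Figure D2:**
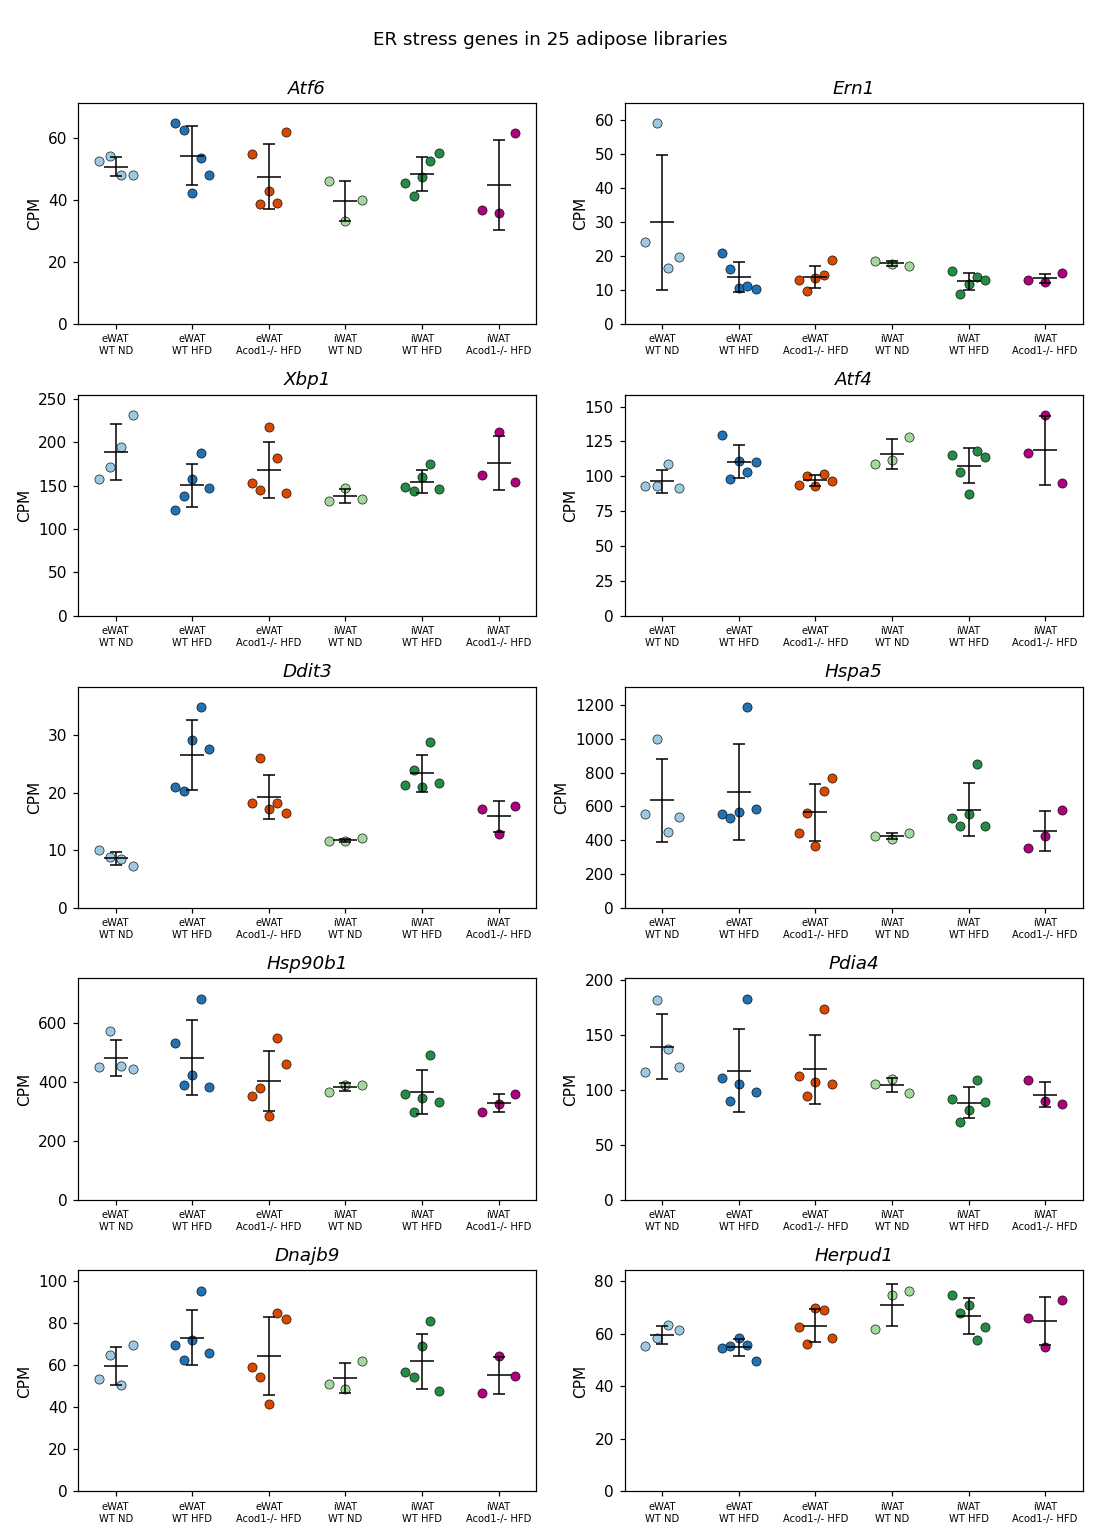
CPM of the 10 genes in each of the 25 libraries (points) by group, with the group mean and SD (bars), on axes that start at 0. Ddit3 is the only panel in which all HFD libraries of wild type mice lie above all ND libraries in both depots, and Hspa5 shows single high libraries at 1001, 1192 and 853 CPM.

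In iWAT the same pair of genes passed the test, Ddit3 upward and Ern1 downward. Ddit3 was at 11.6, 11.6 and 12.04 CPM in ND and at 21.4, 23.9, 20.9, 28.8 and 21.8 CPM on the HFD. The ND libraries were within 1 CPM of each other and all lay below the HFD libraries. The log2 change was 1.01 (SE 0.16, adjusted p = 0.000734 in edgeR), or 2.02-fold.

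Ern1 was at 18.6, 17.6 and 17.0 CPM in ND and at 15.4, 8.61, 11.8, 13.7 and 12.8 CPM on the HFD. Here all ND libraries lay above all HFD libraries, with no library standing apart in ND. The log2 change was -0.49 (SE 0.18, adjusted p = 0.0468), and it lost the call without ND library 1 (adjusted p = 0.113), without ND library 2 (adjusted p = 0.102) and with the identifier series as a term (adjusted p = 0.305).

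Hspa5 also separated by diet in iWAT, although it missed the threshold. It was at 424, 406 and 440 CPM in ND and at 534, 482, 555, 853 and 482 CPM on the HFD. All HFD values were higher, with library 4 at 853 CPM well above the rest (log2 0.48, SE 0.22, adjusted p = 0.103, approximate 95% interval 0.05 to 0.91). That interval excludes 0 although the unadjusted p of edgeR's test was 0.0521. DESeq2's Wald test called it (adjusted p = 0.0706), as did the fit of the 2 groups alone (adjusted p = 0.0756).

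The other 7 members overlapped between the diets in iWAT. Xbp1 had a log2 difference of 0.18 (SE 0.12, adjusted p = 0.24), Atf6 of 0.30 (SE 0.20, adjusted p = 0.238) and Dnajb9 of 0.22 (SE 0.18, adjusted p = 0.357). For Atf6 the value was 0.72 and called (adjusted p = 0.0237) with the identifier series as a term, and 0.15 (adjusted p = 0.615) in limma on log2(TPM + 1). Hsp90b1, Pdia4, Atf4 and Herpud1 had log2 changes of -0.04, -0.21, -0.09 and -0.07, none called in edgeR. The limma fit called Pdia4 (-0.38, adjusted p = 0.0727). Of all genes tested in this comparison 50.1% were called, against 2 of the 10 members, and 47.2% did not overlap, against 3 members.

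Cell type markers moved with diet in both depots. In eWAT all 6 macrophage markers rose, from summed levels of 374 to 697 CPM in ND to 1076 to 3645 CPM on the HFD, and in iWAT 5 of 6 rose, from 386 to 481 CPM to 378 to 997 CPM. The 4 fibroblast and progenitor markers rose in both depots (1229 to 1525 against 2271 to 4556 CPM in eWAT, 1460 to 2001 against 3500 to 5622 CPM in iWAT). Of the 8 B and plasma cell markers 7 were tested in iWAT, and 6 of them fell and 1 rose on the HFD, the sum going from 433 to 675 CPM to 18.3 to 60.4 CPM. In eWAT 4 of 5 mammary and skin epithelium markers fell (28.3 to 318 against 3.47 to 20.7 CPM). Of 6 adipocyte markers 4 rose in iWAT (20430 to 24970 against 36910 to 46720 CPM), and 1 rose and 1 fell in eWAT. Neutrophil markers went from 1.25 to 3.73 CPM to 23.7 to 51.9 CPM in eWAT and from 1.86 to 2.04 CPM to 6.19 to 21.9 CPM in iWAT, where the 1 of 3 that was tested rose in each depot. The 3 brown adipocyte, 3 T cell and 3 skeletal muscle markers fell in iWAT, the brown adipocyte sum from 84.6 to 1020 CPM to 23.2 to 52.2 CPM, and the 3 endothelial markers fell in eWAT and rose in iWAT. The skeletal muscle sums overlapped, at 1.59 to 5340 CPM in iWAT ND and 16.9 to 197 CPM on the HFD, with the 5340 CPM in ND library 1. All 3 mast cell markers rose in eWAT. The part of these cell types in the Ddit3 and Ern1 results was not tested. Of the 5 immediate early genes, which respond to handling, 3 rose in each depot and 1 fell in eWAT.

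In some groups 1 library was high for several folding genes at once. HFD library 4 held the highest value of its group for 6 members in eWAT (Hspa5, Hsp90b1, Pdia4, Dnajb9, Ddit3 and Xbp1) and for 7 members in iWAT (the same 6 and Atf4). In eWAT this library was at 1192 CPM for Hspa5, 682 for Hsp90b1, 183 for Pdia4 and 95.6 for Dnajb9, while the other 4 libraries of the group reached at most 583, 530, 111 and 72.2 CPM. The iWAT library of the same number was at 853 CPM for Hspa5, 490 for Hsp90b1, 109 for Pdia4 and 81.0 for Dnajb9. Pdia4 went the other way in the remaining iWAT groups: ND library 3 was highest for Hspa5, Hsp90b1 and Dnajb9 and lowest for Pdia4, and knockout library 1 was lowest for the former 3 and highest for Pdia4. Whether libraries of equal number came from 1 mouse is not stated in the labels.

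ND library 2 of eWAT held the highest Hspa5, Hsp90b1, Pdia4, Atf6 and Ern1 of its group, at 1001, 572, 182, 54.0 and 59.1 CPM. Its Ddit3 (8.81 CPM) lay inside the range of the other ND libraries. The part of the epididymis markers in these values was not tested. In the eWAT knockout group, library 4 was highest for Hsp90b1 (546 CPM), Pdia4 (174 CPM) and Dnajb9 (84.7 CPM), and library 3 lowest for Hspa5 (363 CPM), Hsp90b1 (282 CPM) and Dnajb9 (41.5 CPM). Knockout library 5 was highest for Hspa5 (768 CPM), Atf6 (61.8 CPM) and Ern1 (18.6 CPM). Its epididymis markers were also the highest of the group, at 948 CPM, and their part was not tested. In eWAT the libraries that led for Hspa5 never led for Herpud1, and iWAT HFD library 4 held the lowest Herpud1 value of its group, at 57.5 CPM. In the iWAT ND and knockout groups, however, library 3 was the highest for both Hspa5 and Herpud1.

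**Figure D3:**
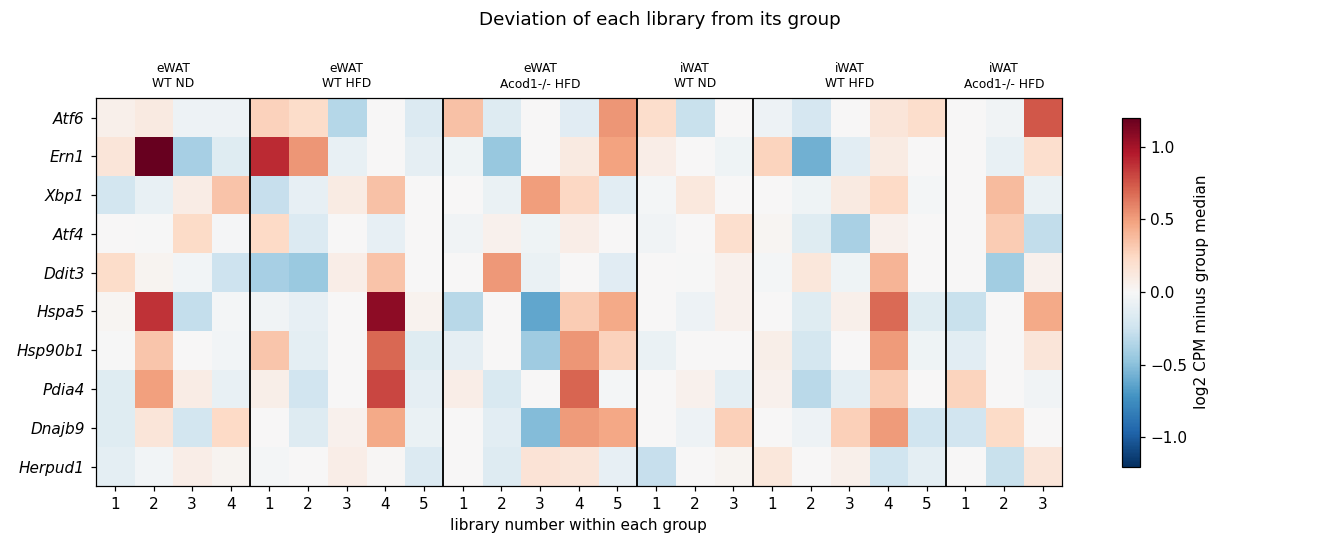
Log2 CPM of each gene (rows) in each library (columns) minus the median of that library's group, on a colour scale from -1.2 (blue) to 1.2 (red). Hspa5, Hsp90b1, Pdia4 and Dnajb9 are high together in HFD library 4 of eWAT and iWAT, and Ern1 and Hspa5 in ND library 2 of eWAT, where Hspa5 reached 1001 CPM.

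The next question was whether Acod1 loss changed the genes under the HFD. In eWAT none of the 10 members was called in edgeR, beside 19.9% of all tested genes. An unadjusted p under 0.05 was seen for 2 members and for 4304 of 14936 genes. No member separated the genotypes in CPM, beside 7.01% of all genes. DESeq2 called 2 members, Ddit3 and Herpud1 (adjusted p = 0.0785 and 0.0655). It also called 34 of 154 tested genes of the pathway lists described below, and its share of all genes is not given.

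Ddit3 came closest to a genotype difference in both depots. In eWAT the knockouts were at 18.3, 26.1, 17.2, 18.2 and 16.6 CPM, against 20.3 to 35.0 CPM in the wild type, and 4 of 5 knockout libraries lay below the whole wild type range, library 2 inside it. The log2 change was -0.45 (SE 0.18, adjusted p = 0.105 in edgeR), 1.37-fold lower, and -0.59 (adjusted p = 0.0476) without knockout library 2. Over the single libraries left out, the adjusted p ran from 0.0477 to 0.25, the latter without wild type library 4. Knockout library 2 had the fewest counts on genes of all libraries (31.41 M) and the largest mitochondrial share (13.2%), and the part of these in its Ddit3 value was not tested. On the TPM scale it was again the highest knockout, at 31.0 TPM against 27.5 to 28.2 TPM, but all knockouts lay below the wild type (36.5 to 50.4 TPM), and limma on log2(TPM + 1), an alternative added after the values were seen, gave -0.52 (SE 0.13, adjusted p = 0.0285). All eWAT knockout libraries stayed above the ND range of 7.24 to 9.995 CPM.

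In iWAT no gene of 14801 was called between the genotypes in edgeR (0.0%, smallest adjusted p = 0.108, 2468 genes at an unadjusted p under 0.05). DESeq2 called 1 member, Ddit3, and also 7 of 152 tested genes of the pathway lists described below. Its share of all genes is not given, so the edgeR share is no measure for this call. The knockouts had 17.1, 12.8 and 17.8 CPM of Ddit3, and every one lay below every wild type library (20.9 to 28.8 CPM) and above every ND library. Non-overlapping groups were seen for this 1 member and for 8.2% of all tested genes. The log2 change was -0.58 (SE 0.16, adjusted p = 0.146 in edgeR), the adjusted p was 0.0368 in DESeq2's Wald test, and in edgeR it ran from 0.045 (without knockout library 3) to 0.332 (without knockout library 2) when single libraries were left out. No marker list held a called gene here in edgeR, although 19 of 59 tested marker genes had an unadjusted p under 0.05 and DESeq2 called 13, and macrophage markers summed to 262 to 320 CPM in the knockouts against 378 to 997 CPM, and the mammary and skin epithelium markers reached 534 CPM in knockout library 2 against at most 9.42 CPM in the wild type.

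Herpud1 was the only member with a higher fitted level in the eWAT knockouts among those with an unadjusted p under 0.05 (62.3, 55.9, 69.9, 68.8 and 58.2 CPM against 49.6 to 58.5 CPM). Library 2 and library 5 of the knockouts overlapped the wild type (log2 0.22, SE 0.09, adjusted p = 0.112 in edgeR). In iWAT the log2 difference of Herpud1 was -0.07 (SE 0.13). The chaperones gave wide intervals: Hspa5 -0.27 (approximate 95% interval -0.82 to 0.29) in eWAT and -0.38 (-0.81 to 0.05) in iWAT, and Hsp90b1 -0.24 (-0.62 to 0.13) and -0.18 (-0.49 to 0.12). Ern1 and Xbp1 had log2 changes of 0.02 and 0.17 in eWAT and of 0.07 and 0.16 in iWAT, none called, and Atf4 of -0.17 and 0.11. Atf6 (-0.18 and -0.13), Dnajb9 (-0.17 and -0.19) and Pdia4 (0.03 and 0.08) were not called either. The members' median log2 change in eWAT was -0.17, against 0.04 for all tested genes. Among the markers, all 6 macrophage markers fell in the eWAT knockouts (299 to 1152 CPM against 1076 to 3645 CPM), 3 of 4 fibroblast and progenitor markers fell, 3 of 5 immediate early genes fell, 3 of 6 epididymis epithelium markers rose (up to 948 CPM in knockout library 5), and their part in the Ddit3 values was not tested.

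**Figure D4:**
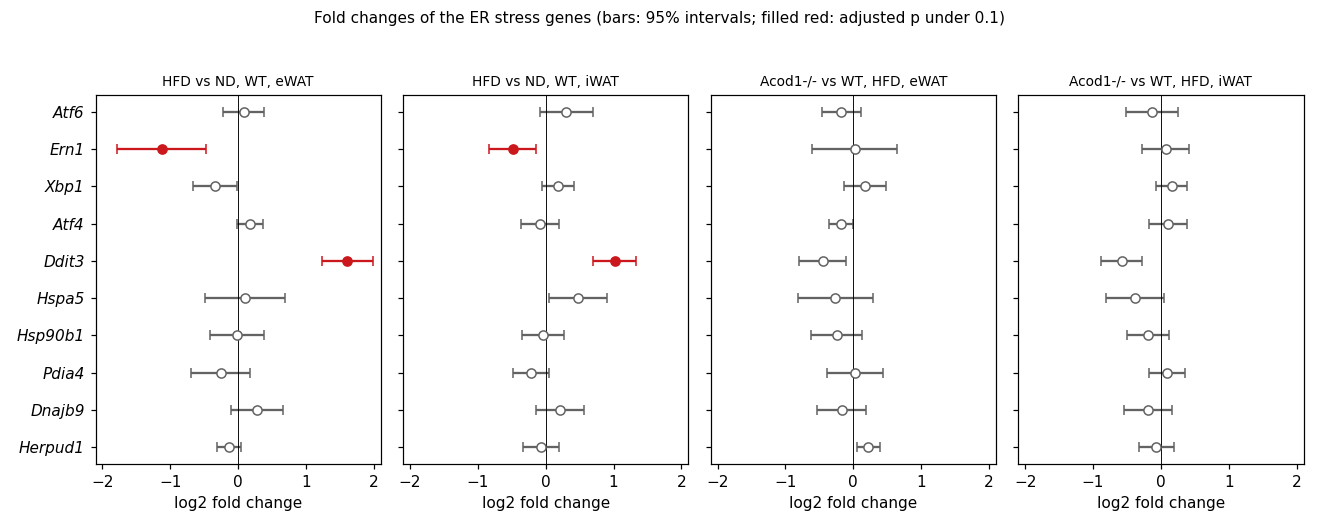
Log2 fold change of each gene in the 4 comparisons within a depot, with bars for approximate 95% intervals, filled red where the adjusted p was under 0.1. Ddit3 lies to the right (1.61 and 1.01) and Ern1 to the left (-1.12 and -0.49) in the HFD panels, and Ddit3 lies left of 0 (-0.45 and -0.58), without a call, in both knockout panels.

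Between the depots, Xbp1 was 1.37-fold higher and Ddit3 1.36-fold lower in eWAT than in iWAT of ND mice. Xbp1 was at 157, 172, 195 and 232 CPM in eWAT and 133, 147 and 135 CPM in iWAT, with no overlap (log2 0.45, SE 0.16, adjusted p = 0.0492 in edgeR over 15609 genes). The corresponding Ddit3 values of 7.24 to 9.995 and 11.6 to 12.04 CPM did not overlap either (log2 -0.45, SE 0.19, adjusted p = 0.0848). Without eWAT library 2 Xbp1 kept its call (0.49, adjusted p = 0.0496) and Ddit3 lost it (-0.45, adjusted p = 0.132). Leaving out eWAT library 4 or any 1 of the 3 iWAT ND libraries ended the Xbp1 call, with adjusted p from 0.106 to 0.159, and leaving out any of the ND libraries but eWAT library 1 ended that of Ddit3. With these 2 called members stood 32.4% of all genes, and 6 members did not overlap between the depots, beside 36.0% of all genes. Hspa5, Atf6, Hsp90b1 and Pdia4 had log2 differences of 0.59, 0.35, 0.33 and 0.42 between the depots, none called in edgeR. DESeq2 also called Ern1, Atf4 and Herpud1 (adjusted p = 0.0939, 0.0779 and 0.0613), and its share of all genes is not given. Without eWAT library 2, edgeR gave Ern1 a log2 difference of 0.18 (adjusted p = 0.663), against 0.75 with it. Those of Hspa5, Atf6, Hsp90b1 and Pdia4 were then 0.28, 0.32, 0.24 and 0.27, and those of Atf4 and Herpud1 -0.24 each. The B and plasma cell markers were high in the iWAT ND libraries (433 to 675 CPM against 21.2 to 36.0 CPM in eWAT), as were the skeletal muscle markers in library 1 (5340 CPM) and the brown adipocyte markers (84.6 to 1020 CPM), and their part was not tested.

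On the HFD the depot differences of Ddit3 and Xbp1 were 0.19 (SE 0.15) and -0.04 (SE 0.14) on the log2 scale, not called. Hsp90b1 (0.40, adjusted p = 0.141) and Pdia4 (0.41, adjusted p = 0.156) were not called either, with adjusted p from 0.0247 to 0.275 and from 0.029 to 0.279 over the alternatives that kept all libraries. Without HFD library 4 of eWAT their values were 0.24 and 0.19. Herpud1 was the 1 called member, lower in eWAT (49.6 to 58.5 CPM) than in iWAT (57.5 to 74.5 CPM), with HFD library 4 of iWAT and HFD library 3 of eWAT overlapping (log2 -0.28, SE 0.09, adjusted p = 0.0498), beside 18.3% of all genes. It lost the call without eWAT library 5 (adjusted p = 0.103) or iWAT library 3 (adjusted p = 0.119), and with no filter on low counts (adjusted p = 0.124). In the knockouts no member was called, beside 4.22% of all genes, and DESeq2 called none. An unadjusted p under 0.05 was seen for 1 member and for 2299 of 15609 genes.

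The fitted rise of Ddit3 with the HFD was larger in eWAT than in iWAT by 0.63 on the log2 scale (SE 0.24, adjusted p = 0.0663 for the diet by depot term in edgeR), the 1 called member beside 28.7% of all genes. This call was not stable: over the alternatives that kept all libraries the term ran from 0.54 to 0.67 and the adjusted p from 0.0518 to 0.173, the latter with no filter on low counts. The ND levels started lower in eWAT (7.24 to 9.995 against 11.6 to 12.04 CPM) and the HFD levels ended in overlapping ranges (20.3 to 35.0 and 20.9 to 28.8 CPM). It also ended without any 1 of 9 libraries, among them eWAT ND libraries 2 and 4, eWAT HFD library 4 and each of the 3 iWAT ND libraries, where the term lay between 0.51 and 0.64 and the adjusted p between 0.103 and 0.13. Xbp1 had the opposite term (-0.49, SE 0.21, adjusted p = 0.107 in edgeR and 0.0846 in DESeq2), from a lower fitted level on the HFD in eWAT and a higher one in iWAT. No member was called for the genotype by depot term, beside 0.00641% of all genes, and DESeq2 called none. None had an unadjusted p under 0.05, beside 1607 of 15609 genes.

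The wider pathway was followed in 11 lists with 156 genes, chosen by role and not by how they moved. A gene counts as higher or lower where its adjusted p was under 0.1. In eWAT 24.8% of all tested genes were higher and 26.9% lower on the HFD, and in iWAT 25.9% and 24.2%. Scaled as TPM, which moved the median of all genes from -0.04 to -0.17 in eWAT and from 0.00 to -0.13 in iWAT (log2), the split shifted toward lower calls, with 2577 genes higher and 4548 lower in eWAT and 2731 and 4426 in iWAT, against 3705 and 4025 and 3830 and 3585 in the edgeR fit.

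The remaining ER chaperones and co-chaperones rose with the HFD more often than they fell. In eWAT 11 of 18 were higher and 1 lower (median log2 0.49), and in iWAT 9 were higher and none lower (median 0.30), with 7 genes higher in both depots. Serpinh1, the collagen chaperone HSP47, rose by 1.30 (SE 0.30, adjusted p = 0.00419) in eWAT and by 1.64 (SE 0.20, adjusted p = 0.000218) in iWAT. The prolyl isomerase Ppib, which works on collagen, rose by 0.74 and 0.79, and Fkbp7 by 0.65 and 1.09 (log2). Cnpy3, a chaperone of Toll-like receptors, rose by 0.50 (SE 0.09) in eWAT, and Sil1, the nucleotide exchange factor of BiP, by 0.75 (SE 0.16) in iWAT. The counts in eWAT ranged from 10 to 11 higher when any 1 library was left out (11 without ND library 2), and in iWAT from 5, without ND library 2, to 10. With the identifier series as a term 9 were higher in eWAT and 6 in iWAT, and none lower. Fibroblast and progenitor markers rose in the same comparisons, as given above, and their part was not tested.

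Genes of protein translocation into the ER and export from it also rose more often than they fell. In eWAT 15 of 25 were higher and 3 lower (median 0.38), in iWAT 16 higher and none lower (median 0.40), and 11 were higher in both. The channel subunits Sec61b and Sec61g rose by 1.04 (SE 0.18) and 0.93 (SE 0.19) in eWAT, and Ssr4 and the signal peptidase subunit Sec11c by 0.59 and 0.92. In iWAT Sec61g rose by 0.88, the KDEL receptors Kdelr3 and Kdelr2 by 1.65 and 0.72, and the coat protein gene Sec24d by 1.33. Leaving out 1 library gave 9 (without HFD library 4) to 17 higher genes in eWAT, 12 without ND library 2, and in iWAT 9 without ND library 2, 10 without ND library 1 and at most 16. With the identifier series as a term 11 were higher and 1 lower in each depot.

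Of 11 oxidative folding genes 3 were higher and none lower in eWAT, beside 24.8% of all tested genes higher, and 5 were higher and 1 lower in iWAT, beside 25.9% higher. Selenof, P4hb and Pdia3 were higher in eWAT (log2 0.44, 0.43 and 0.61) and again in iWAT. Pdia5 rose by 1.14 (SE 0.19) in iWAT, and Ero1lb, an oxidase that recharges disulfide isomerases, fell by 1.46 (SE 0.20, adjusted p = 0.000355).

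ER-associated degradation showed calls both ways. In eWAT 3 of 21 genes were higher and 5 lower (median 0.02), beside 24.8% and 26.9% of all tested genes. Among them were the ubiquitin ligase Syvn1 at -0.68 (SE 0.15), Derl1 at -0.64 (SE 0.16) and Derl2 at 0.36 (SE 0.10). The 5 lower calls became 3 without ND library 3, ND library 4 or HFD library 4. In iWAT 6 of 20 were higher and 3 lower (median 0.19), beside 25.9% and 24.2% of all tested genes. Ubxn8, the Syvn1 partner Sel1l, the mannosidase-like Edem1 and Erlec1 rose by 0.82, 0.76, 0.71 and 0.73 on the log2 scale.

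Downstream of PERK, the ATF4 and CHOP targets split in eWAT and leaned upward in iWAT. The shares of all tested genes were 24.8% higher and 26.9% lower in eWAT, and 25.9% and 24.2% in iWAT. In eWAT 9 of 25 were higher and 6 lower (median 0.25): Atf3, a stress transcription factor, by 3.93 (SE 0.72, adjusted p = 0.00129) and Vldlr, a lipoprotein receptor, by 1.12 (SE 0.24), against Asns, asparagine synthetase, at -1.27 (SE 0.19, adjusted p = 0.000503) and Sesn2 at -0.89 (SE 0.21). In iWAT 11 of 24 were higher and 1 lower (median 0.38), with the serine synthesis gene Psat1 up by 1.24 (SE 0.15), the amino acid transporter subunit Slc3a2 by 0.80 (SE 0.14) and Vldlr by 1.57 (SE 0.31), and the cystine transporter Slc7a11 down at -3.45 (SE 0.69). The iWAT count of higher genes was 5 without ND library 2, 7 without HFD library 5 and at most 13 without another library. In eWAT it was 8 higher and 4 lower without ND library 2, and 7 and 2 with the identifier series as a term. Among the kinases and phosphatase subunits of the integrated stress response, Eif2ak2, the double-stranded RNA kinase PKR, rose by 0.77 (SE 0.14) in eWAT and 0.56 (SE 0.17) in iWAT, Ppp1r15b changed by -0.50 (SE 0.13) and -0.65 (SE 0.12), and Eif2s1 rose by 0.50 (SE 0.15) in iWAT. Those were the called genes of this list of 8.

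Relatives of ATF6 were among the called genes as well. Creb3 rose by 0.79 (SE 0.13) in eWAT and 1.27 (SE 0.15) in iWAT, and Creb3l3 by 3.17 (SE 0.68) and 2.82 (SE 0.49). Mbtps1, the protease that first cuts ATF6, changed by -0.31 (SE 0.09) and Atf6b by -0.27 (SE 0.09) in eWAT, and in iWAT Traf2, an adaptor of IRE1, by -0.79 (SE 0.15) and Creb3l2 by 1.08 (SE 0.21). In all 3 of 8 were higher and 2 lower in eWAT, beside 24.8% and 26.9% of all tested genes. In iWAT 4 were higher and 2 lower, beside 25.9% and 24.2%. RNAs described as targets of IRE1 cutting rose where they were called, 4 of 7 in eWAT (median 0.87) and 5 of 7 in iWAT (median 1.13), the collagen gene Col6a1, Sparc, Pmp22 and Scara3 in both. The fibroblast and progenitor markers rose in the same comparisons, as given above, and their part was not tested.

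Of 10 genes of ER-stress-linked cell death, Bak1 and Bax, the pore-forming effectors, rose by 0.92 (SE 0.14) and 1.09 (SE 0.18) in eWAT, Casp12 by 0.56 (SE 0.23), and Map3k5 changed by -0.42 (SE 0.14). In iWAT Bak1 rose by 0.51 (SE 0.15) and Casp12 by 1.02 (SE 0.23), while Pmaip1 and Bcl2l11, BH3-only genes, were at -2.29 (SE 0.25) and -0.79 (SE 0.16). In all 3 of 10 were higher and 1 lower in eWAT, beside 24.8% and 26.9% of all tested genes. In iWAT 3 were higher and 2 lower, beside 25.9% and 24.2%, and 1 was higher with the identifier series as a term. B and plasma cell markers summed lower on the HFD in iWAT (433 to 675 against 18.3 to 60.4 CPM). So did T cell markers (94.2 to 146 against 2.67 to 36.9 CPM), and the part of both was not tested.

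Chaperones of other compartments were counted for comparison. The shares of all tested genes beside these counts were 24.8% higher and 26.9% lower in eWAT, and 25.9% and 24.2% in iWAT. In eWAT 6 of 9 mitochondrial chaperones and proteases were lower and 1 higher (median -0.35), led by Clpx at -0.55 (SE 0.09) and Trap1 at -0.71 (SE 0.14), and in iWAT 2 were lower, Dnaja3 and Trap1. The eWAT count of lower genes was 3 without ND library 4 and with the identifier series as a term, and the iWAT count was 0 without ND library 3 and with the series term. Of 12 cytosolic heat shock genes 1 was higher and 3 lower in eWAT, with Hsf1, the heat shock transcription factor, at -0.62 (SE 0.15), and 3 were higher and 2 lower in iWAT, with Hspb1 up by 0.95 (SE 0.13) and Hsf1 at -0.79 (SE 0.14).

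**Figure D5:**
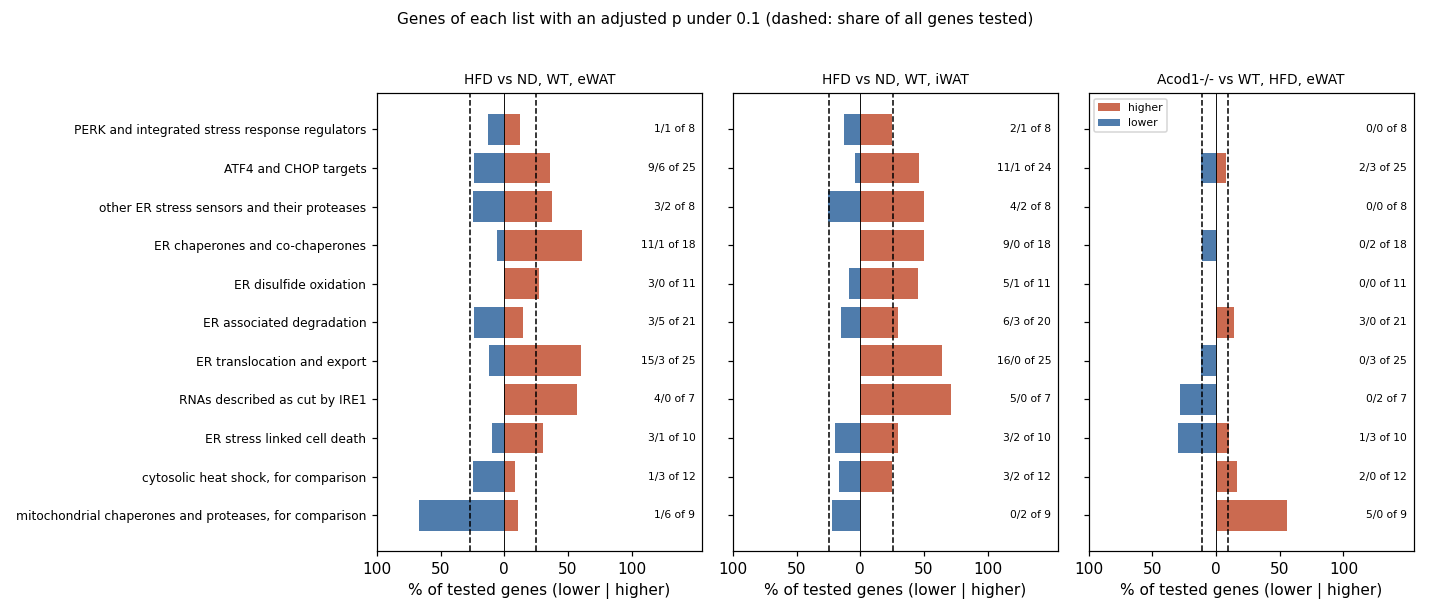
Percentage of the tested genes of each list that were higher (right) or lower (left) with an adjusted p under 0.1, with the counts at the right and dashed lines at the share of all tested genes. ER chaperones (11 of 18 and 9 of 18) and translocation genes (15 of 25 and 16 of 25) exceed the dashed line for higher genes in the HFD panels, and mitochondrial chaperones run the other way in eWAT, with 6 of 9 lower on the HFD and 5 of 9 higher in the knockouts.

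Between the genotypes 26 of 154 tested list genes were called in eWAT, beside 19.9% of all tested genes (9.13% higher and 10.8% lower). Asns rose by 0.96 (SE 0.18, adjusted p = 0.011) and Phgdh by 0.81 (SE 0.22), and Atf3 changed by -2.98 (SE 0.63, adjusted p = 0.0136) and Aldh18a1 by -0.63 (SE 0.21), among 2 higher and 3 lower ATF4 and CHOP targets. The 3 lower targets became 1 without knockout library 1, 3 or 4 or wild type HFD library 4, and 5 without knockout library 5. Of the chaperones 2 of 18 were lower, Cnpy3 at -0.32 (SE 0.08) and Dnajb11 at -0.40 (SE 0.14), and of the translocation genes 3 of 25, Sec11c, Kdelr3 and Spcs3. The 3 lower translocation genes became 1 without knockout library 3 or 4 or wild type HFD library 1 or 4. Bak1, Bcl2l11 and Bax were lower at -0.53, -1.27 and -0.61, and Map3k5 higher at 0.42. The mitochondrial chaperones went up in 5 of 9 cases, Trap1 by 0.51 (SE 0.13) and Clpx by 0.28 (SE 0.09), but in 1 to 3 cases without any single one of wild type libraries 1 to 3 or knockout libraries 1 to 4. Dnaja1 and Hspb8 of the cytosolic heat shock genes rose by 0.43 and 0.67. These calls fell to 0 without any single one of knockout libraries 1, 3 and 4, wild type HFD libraries 1 and 2, or ND libraries 1, 3 and 4. The lower genes accompanied the macrophage markers given above, and their part was not tested. In the ER-associated degradation list Ufd1, Ubxn8 and Derl1 were higher by 0.31, 0.36 and 0.41, calls that fell to 0 or 1 without any of 10 single libraries, and Scara3 and Pdgfrb of the IRE1 targets were lower at -0.79 and -0.71. The integrated stress response, sensor and disulfide lists held no called gene in eWAT in edgeR (1, 2 and 1 genes at an unadjusted p under 0.05, and 0, 1 and 1 called by DESeq2), and in iWAT none of the 152 tested list genes was called in edgeR (21 at an unadjusted p under 0.05, 7 called by DESeq2), with 52 of them above 0.

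The genes most like 3 of the members were found by the root mean square (RMS) difference of centred log2 CPM over the 25 libraries, among 15599 genes that were not members. Nearest to Hspa5 were Pdia6 (0.18), Manf (0.21) and Calr (0.23), all of them ER folding or ER stress genes, against a spread of 0.42 in Hspa5 itself. Ddit3, with a spread of 0.60, had Nedd8 (0.24), Tmem160 (0.24) and Zeb2os (0.26) nearest, none of them in the lists. Xbp1, with a spread of 0.23, had Pgrmc1 (0.16), Dusp22 (0.17) and Ncbp2 (0.18), distances that were not much smaller than its own spread. The points share the 6 groups and the libraries that stood apart, and the distances are descriptions.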

How the data were processed

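RNA of snap-frozen eWAT and iWAT was made into directional mRNA libraries. Per the labels and methods, the authors trimmed adaptors with cutadapt, aligned reads to mouse genome GRCm38 (mm10) with STAR, and deposited for each library a table of read counts per gene, the transcript length in bases, and FPKM values relative to mapped and to counted reads. The program and strand setting of the counting are not given in the sources used here. Deposited FPKM was recomputed from the counts (largest difference 0.0005) and used only as an alternative to TPM, which was calculated from the counts and lengths.

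Symbols came from the GENCODE table for 54723 of 54752 gene identifiers, and 29 had none. A second identifier with the symbol Ddit3, of 105 bases within that gene, had 0 counts in every library and was not used. Ddit3 also overlaps Mars and Gm4189 on the opposite strand, Herpud1 overlaps Gm15890, and Hsp90b1 overlaps Gm15344, Gm25745 and 1810014B01Rik, so that shared reads may have been lost as ambiguous (1.52 to 2.07% of reads). Reads in no feature made up 6.41 to 11.9%.

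Groups came from the labels, with 1 library per sample. The paper counts mice, in numbers that match the libraries of each group. P-values measure the spread between these libraries, and whether both depots came from the same mice is not stated. edgeR 4.0.16 (R 4.3.3) quasi-likelihood fits with TMM scaling were made per depot over its 3 groups and, for depot and interaction terms, over all 25 libraries. Genes needed a mean of at least 1 CPM, and a Benjamini-Hochberg adjusted p under 0.1 was the threshold. Approximate 95% intervals span 1.96 SE on each side, with the SE derived from the F value, and are narrower than the test implies. They can exclude 0 where the unadjusted p is over 0.05, as for diet with Hspa5 in iWAT and Xbp1 in eWAT. The CPM printed are TMM-scaled over all 25 libraries. Alternatives were no filter, 1 CPM in every library, DESeq2 1.42.0 size factors and Wald test, an adjusted p under 0.05, each library left out, the identifier series as a term, the replicate number as a block, the 2 compared groups alone, and the HFD libraries of the first series alone. Limma 3.58.1 on log2(TPM + 1) and the lists without single libraries were added after the values were seen. The scripts were tested on simulated data. Figures were drawn with matplotlib 3.10.9.

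The members and gene lists were chosen with earlier results of these data known. In each list and comparison, up to 4 called genes with the smallest adjusted p were named, all 10 members throughout, and for Hspa5, Xbp1 and Ddit3 the 3 nearest genes. Members rested on at least 255 counts per library. The values of 1 called list gene are not reported here.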

Additional observations from a re-analysis of the deposited data

Results flagged for a closer look

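Among 40 sets of 4 or 5 libraries of a member, 8 held a library far from the others of its group, by the gap to its nearest neighbour relative to the whole range. Chance would flag about 1 in 20 such sets if they were independent. The sets share libraries, and single libraries were flagged for several members, so the 8 flags cannot be set against that rate. HFD library 4 of eWAT was high for Hspa5 (1192 CPM), Dnajb9 (95.6 CPM) and Pdia4 (183 CPM), and HFD library 4 of iWAT for Hspa5 (853 CPM). ND library 2 of eWAT was high for Hsp90b1 (572 CPM), ND library 3 of eWAT for Atf4 (109 CPM), and in the eWAT knockouts library 2 for Ddit3 (26.1 CPM) and library 4 for Pdia4 (174 CPM). The Ddit3 response to diet differed between the depots by a test of the difference itself, larger in eWAT by 0.63 on the log2 scale (adjusted p = 0.0663 in edgeR), a call that ended with no filter on low counts (adjusted p = 0.173), with the replicate block (adjusted p = 0.157), at an adjusted p under 0.05 and without any 1 of 9 libraries.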

How the results depend on the processing

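The Ddit3 rise with the HFD kept its direction and call in both depots under every alternative run, from 1.37 to 1.63 in eWAT and from 0.82 to 1.08 in iWAT (log2), and 1.49 to 1.69 in eWAT when single libraries were left out. The number of called members depended more on the setting. DESeq2's Wald test called 4 for diet in eWAT, 2 for genotype in eWAT, 1 for genotype in iWAT, 5 for depot on ND and 2 for the diet by depot term, against 2, 0, 0, 2 and 1. The identifier series as a term gave 1 for diet in eWAT and 2 for the diet by depot term, and the first series alone 1 for genotype in iWAT. Requiring 1 CPM in every library gave 1 for genotype in eWAT, as did limma on log2(TPM + 1), which called 3 for diet in eWAT (Ddit3, Xbp1 and Ern1) and 3 for diet in iWAT (Ddit3, Ern1 and Pdia4), against 2 and 2. No filter gave 1 for depot on ND, 0 for depot on the HFD and 0 for the diet by depot term, an adjusted p under 0.05 gave 1 for depot on ND and 0 for the diet by depot term, and DESeq2's size factors 4 for depot on ND. When single libraries were left out, the counts ran from 2 to 4 for diet in eWAT, 0 to 2 for genotype in eWAT, 1 to 4 for diet in iWAT, 0 to 1 for genotype in iWAT, 0 to 4, 0 to 2 and 0 to 1 for depot on ND, on the HFD and in the knockouts, 0 to 2 for the diet by depot term and 0 to 0 for the genotype by depot term. The cause of these shifts was not tested. Apart from the limma fit, the share of all genes called is not given for these settings or for the replicate block. The counts therefore compare settings, and not the members with other genes.

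The replicate block gave 3 called members for depot on the HFD (Herpud1, Hsp90b1 with adjusted p = 0.0247 and Pdia4 with 0.029) and 0 for the diet by depot term (Ddit3 0.54, adjusted p = 0.157). Labels do not say that equal numbers mark a shared animal, and same-numbered libraries correlated from -0.17 to 0.15 between eWAT ND and HFD and from -0.09 to 0.24 between eWAT HFD and knockouts. Between the depots they correlated from 0.04 to 0.22 on ND, from -0.06 to 0.47 in wild type on the HFD (0.47 for library 4) and from -0.07 to 0.08 in the knockouts. In none of these did every pair exceed 0.1, but noisy deviations can fail that rule in shared animals too, so it cannot exclude pairs. The main fits used no pairs because the labels state none. Of same-numbered eWAT libraries on the HFD, 4 of 5 correlated best with their own number in the knockouts, and between the depots 3 of 3 did on ND, 2 of 5 in wild type on the HFD and 1 of 3 in the knockouts.

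Without a filter on low counts the sign reversed in Hsp90b1 0.0089 for diet in eWAT, Ern1 -0.0097 for genotype in eWAT and Pdia4 -0.0126 for genotype in eWAT. With the HFD libraries of the first series alone the sign reversed in Ern1 -0.19 for genotype in eWAT. With the identifier series as a term the sign reversed in Herpud1 0.0083 for diet in iWAT. With the replicate block the sign reversed in Herpud1 0.0222 for diet in iWAT, Ern1 -0.16 for depot in the knockouts, Dnajb9 -0.10 for depot in the knockouts, Hspa5 -0.18 for the genotype by depot term and Xbp1 0.0063 for the genotype by depot term. With 1 CPM required in every library the sign reversed in Herpud1 0.0068 for the diet by depot term and Pdia4 0.0254 for the diet by depot term. With limma on log2(TPM + 1) the sign reversed in Hspa5 -0.0727 for diet in eWAT, Atf6 -0.0869 for diet in eWAT, Ern1 -0.0448 for genotype in eWAT and Pdia4 -0.0527 for genotype in eWAT. Where leaving out 1 library reversed a sign, the ranges of the log2 change follow. For diet in eWAT these were Hspa5 -0.19 to 0.39 and Hsp90b1 -0.17 to 0.0777. For genotype in eWAT these were Hspa5 -0.41 to 0.0267, Ern1 -0.11 to 0.20 and Pdia4 -0.14 to 0.25. For diet in iWAT these were Hsp90b1 -0.19 to 0.0022. For genotype in iWAT these were Atf4 -0.0283 to 0.27, Atf6 -0.41 to 0.0253, Ern1 -0.014 to 0.15 and Herpud1 -0.14 to 0.0593. For depot on the HFD these were Hspa5 -0.0556 to 0.42, Atf4 -0.0427 to 0.0739, Xbp1 -0.13 to 0.0135 and Ern1 -0.0719 to 0.23. For depot in the knockouts these were Atf6 -0.053 to 0.38, Xbp1 -0.18 to 0.0861, Ern1 -0.0818 to 0.15 and Herpud1 -0.14 to 0.0613. For the diet by depot term these were Dnajb9 -0.0188 to 0.21, Herpud1 -0.0848 to 0.0552, Hsp90b1 -0.0909 to 0.20 and Pdia4 -0.23 to 0.12. For the genotype by depot term these were Hspa5 -0.10 to 0.37, Ddit3 -0.0448 to 0.21, Atf6 -0.22 to 0.22, Xbp1 -0.14 to 0.12, Ern1 -0.22 to 0.0932, Dnajb9 -0.14 to 0.0996, Hsp90b1 -0.23 to 0.0628 and Pdia4 -0.27 to 0.12. Scaling as TPM gave 522 higher and 1491 lower genes for genotype in eWAT against 1364 and 1612 in edgeR.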
